A study of Mus musculus with 8 samples.

Results

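The SR splicing factors and the CLK kinases form one regulatory unit of pre-mRNA splicing, and their transcripts were examined in mouse thymus after spaceflight. The set comprised 10 genes chosen by name, 6 SR factors (Srsf1, Srsf2, Srsf3, Srsf5, Srsf6 and Srsf7) and 4 kinases (Clk1, Clk2, Clk3 and Clk4), of which 8 could be measured among 19938 genes represented on the array. The spaceflight group was 4 C57BL/6NTac mice, 8 weeks old, that spent 13 days aboard the space shuttle. The ground-control group was 4 mice of that strain, matched for age and sex, and kept in the same kind of enclosure module. The labels name no mutation, transgene or drug in either group. RNA of the thymus lobes was hybridised to 4 Affymetrix arrays per group, so each value averages all cells of the lobe.

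SR proteins bind exonic sequences through RNA recognition motifs and recruit the spliceosome through a tail of arginine-serine repeats. CLK kinases phosphorylate that tail in the nucleus, which changes where SR proteins reside and which exons they include. In mammalian cells CLK activity is known to increase when temperature falls within the physiological range, and heat shock leads to loss of phosphate from SR proteins. In T cells, alternative splicing of receptors such as CD45 is a classical output of SR and hnRNP proteins. Most SR genes and Clk1 also limit their own output through unproductive splice forms. An array value is a single number for the summed transcripts that a probe set detects and gives neither the splice form nor the phosphorylation state.

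Of the 10 genes, Srsf7 had no probe set assigned to it in the annotation used, and Clk2 had only a probe set assigned to 2 genes, so neither is given a value. The remaining 8 were covered by 11 probe sets, 3 for Srsf3 and 2 for Srsf5, and each gene was represented by the probe set of highest mean. In GRCm38.p6 the genes lie on chromosome 11 (Srsf1, 88046499 to 88053757; Srsf2, 116849897 to 116853675; Clk4, 51263114 to 51281770), chromosome 12 (Srsf5, 80945495 to 80950507), chromosome 2 (Srsf6, 162931508 to 162937121), chromosome 1 (Clk1, 58411988 to 58424088), chromosome 9 (Clk3, 57750621 to 57766235) and, for Srsf3, chromosome 17. All values are log2 expression, and every difference is spaceflight minus ground control. The arrays of spaceflight replicates 1 and 3 were unlike the rest. Their log2 values had an interquartile range of 2.43 each, against 2.68 to 2.95 in the other 6, and their correlation with those 6 was 0.954 to 0.984, against 0.986 to 0.994 among the 6. Double-positive thymocyte markers, the defining genes of the most abundant thymic cell, averaged 9.94 to 10.13 in spaceflight and 10.11 to 10.21 in ground control over 9 measured markers, where the medians of all probe sets were 6.01 to 6.10.

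No SR or CLK gene passed the limma test, which called 10 of 19938 genes (0.0502%) at an adjusted p under 0.05. None of the 8 reached an unadjusted p under 0.05 either, while over all genes 3.05% did so as higher and 7.00% as lower in spaceflight. Nor did the arrays of the 2 groups separate for any of the 8, while 1.73% of all genes lay wholly above and 4.28% wholly below the ground-control arrays. In 5 of the 8 the spaceflight mean was lower and in 3 it was higher, while over all genes it was lower in 10675 of 19938. The median difference of the 8 was -0.10, against -0.018 over all genes. Without spaceflight replicates 1 and 3 the median of the 8 was -0.089, again with 0 of 8 at an unadjusted p under 0.05, against 6.95% of all genes.

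Srsf1, the founding member of the family and a general activator of splice site choice, measured 9.94, 9.80, 9.69 and 9.58 in spaceflight replicates 1 to 4, against 9.95, 9.95, 9.67 and 9.82 in ground-control replicates 1 to 4. The 2 groups overlapped over most of their range. The difference was -0.095 ± 0.12 (log2, ± SE, n = 4 each), with a 95% interval of -0.35 to 0.16 and a limma adjusted p of 0.745. With single arrays left out it ran from -0.16 without spaceflight replicate 1 to -0.037 without spaceflight replicate 4.

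Srsf2, also called SC35 and known as a marker of nuclear speckles, measured 10.47, 10.46, 10.34 and 10.11 in spaceflight, against 10.46, 10.53, 10.50 and 10.71 in ground control. Only the tip of the spaceflight range reached the ground-control range, with spaceflight replicate 1 above ground-control replicate 1 by the narrowest of margins. Its difference was -0.20 ± 0.11 (95% interval -0.46 to 0.049, limma adjusted p = 0.52). Without spaceflight replicates 1 and 3 it was -0.27 (95% interval -0.57 to 0.037, limma adjusted p = 0.804), and without spaceflight replicate 4 it was -0.13.

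Srsf3, the smallest SR protein and an adaptor for mRNA export, measured 11.42, 11.30, 11.23 and 11.39 in spaceflight, against 11.65, 11.44, 11.34 and 11.58 in ground control. Spaceflight replicates 2 and 3 lay below every ground-control array and the other two did not. The difference was -0.17 ± 0.11 (95% interval -0.40 to 0.064, limma adjusted p = 0.543).

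The 3 probe sets of Srsf3 all had lower spaceflight means, but they differed in level and in the size of the difference. The representing probe set 10501661 averaged 11.42 over all arrays, 10424379 averaged 10.74 with a difference of -0.16, and 10443459 averaged 7.78 with a difference of -0.34 (95% interval -0.71 to 0.035, limma adjusted p = 0.504). The last of these measured 7.84, 7.53, 7.62 and 7.44 in spaceflight, against 8.31, 7.79, 7.56 and 8.12 in ground control. It differed by -0.46 without spaceflight replicates 1 and 3 (95% interval -0.91 to -0.017, unadjusted p = 0.0435, limma adjusted p = 0.736).

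Probe set identifiers on this array run largely in genome order, with 94.3% of adjacent named identifiers on the same chromosome. The Srsf3 gene lies on chromosome 17 (GRCm38.p6, 29032660 to 29043372). Of the 20 gene-assigned probe sets next to 10443459, all 20 were for genes on chromosome 17, whereas 19 of 20 next to 10501661 were for genes on chromosome 3 and 18 of 20 next to 10424379 for genes on chromosome 15. For Srsf5, a chromosome 12 gene, 10396926 had all 20 neighbours on chromosome 12 and 10508490 had all 20 on chromosome 4. The positions of the probes themselves were not used here, so the signal of a probe set numbered away from its gene could include transcripts of a near-identical copy. The value that represents Srsf3 and that of the second Srsf5 probe set are uncertain to that extent. Of the other 6 genes, each had at least 19 of 20 neighbours on its own chromosome.

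Srsf5, an SR factor first described in rat as a gene induced in regenerating liver, was the only one of the 5 measured SR genes with a higher spaceflight mean. It measured 10.76, 10.14, 10.41 and 10.28 in spaceflight, against 10.17, 10.30, 9.94 and 9.99 in ground control. Spaceflight replicate 1 was the highest of the 8 arrays and spaceflight replicate 2 lay below ground-control replicates 1 and 2. The difference was 0.30 ± 0.15, a 1.23-fold ratio with a 95% interval of 0.98 to 1.54 (limma adjusted p = 0.502).

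The second Srsf5 probe set showed the same order of arrays within spaceflight, with a difference of 0.33 (95% interval -0.0051 to 0.67, limma adjusted p = 0.493). At the representing probe set the size of the Srsf5 difference depended on which arrays were kept. It was 0.18 without spaceflight replicate 1 (limma adjusted p = 0.831) and 0.38 without spaceflight replicate 2 (limma adjusted p = 0.257). Without spaceflight replicates 1 and 3 it was 0.11 (95% interval -0.19 to 0.41). Spaceflight replicate 1 was also the lowest array for markers of airway epithelium, a tissue outside the thymus (mean of 6 markers 5.48, with 7.76 to 9.37 in the other spaceflight arrays and 8.19 to 10.64 in ground control), and of fat cells (mean of 9 markers 7.60, with 8.47 to 8.55 in the other spaceflight arrays and 8.57 to 9.07 in ground control). It was likewise the lowest of the 8 arrays for the mean of muscle (5.73), fibroblast (7.75), endothelial (6.56), medullary epithelial (6.80), dendritic cell and macrophage (6.73), mature single-positive thymocyte (7.94) and red cell (5.74) markers, and the highest for cycling-cell markers (9.40). The part of these cells in the Srsf5 value was not tested.

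Srsf6, which binds exonic enhancers and can promote exon skipping or inclusion depending on position, measured 9.45, 9.49, 9.42 and 9.41 in spaceflight, against 9.48, 9.61, 9.55 and 9.69 in ground control. Only spaceflight replicate 2 reached above the lowest ground-control array. The difference was -0.14 ± 0.093 (95% interval -0.35 to 0.067, limma adjusted p = 0.562), and the spaceflight arrays were the tightest of any member (SD 0.040, against 0.089 in ground control).

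**Figure D1:**
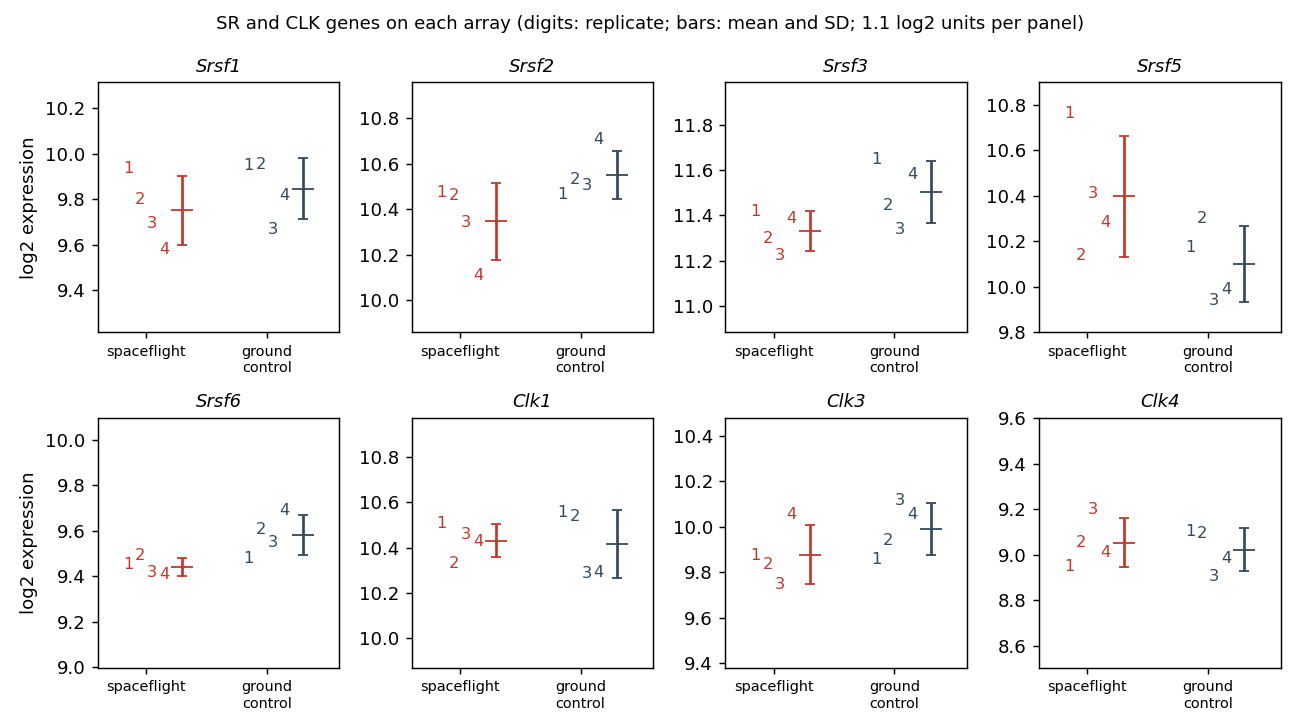
Log2 expression of the 8 measured SR and CLK genes (y axis, 1 panel a gene, equal span in every panel) in spaceflight on the left and ground control on the right, with digits for the replicate on each array and bars for the mean and SD of 4 arrays. The groups overlap in every panel, and Srsf5 is highest in spaceflight replicate 1 at 10.76.

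Clk1 and Clk4, closely related dual-specificity kinases, lay nearest to no difference. Clk1 measured 10.50, 10.33, 10.46 and 10.43 in spaceflight, against 10.55, 10.53, 10.29 and 10.29 in ground control, so the spaceflight arrays lay between the high and the low pair of ground-control arrays. The difference was 0.014 ± 0.11, and the 95% interval of the ratio ran from 0.857 to 1.19 (limma adjusted p = 0.965). Clk4 measured 8.95, 9.05, 9.20 and 9.01 in spaceflight, against 9.10, 9.09, 8.90 and 8.98 in ground control, and the groups again overlapped. The difference was 0.031 ± 0.10, and the 95% interval of the ratio ran from 0.874 to 1.19 (limma adjusted p = 0.911). The sign of both is not fixed: the Clk1 difference was -0.038 without spaceflight replicates 1 and 3, and the Clk4 difference was -0.018 without spaceflight replicate 3.

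Clk3, a family member that is abundant in testis, measured 9.87, 9.83, 9.75 and 10.05 in spaceflight, against 9.86, 9.94, 10.11 and 10.05 in ground control. Spaceflight replicate 4 lay among the highest ground-control arrays. The difference was -0.11 ± 0.11 (95% interval -0.35 to 0.12, limma adjusted p = 0.669). It was -0.048 without spaceflight replicates 1 and 3, and with single arrays left out it ran from -0.17 without spaceflight replicate 4 to -0.071 without spaceflight replicate 3. Among the 3 kinases the bound farthest from no difference was the lower one of Clk3, a ratio of 0.782.

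**Figure D2:**
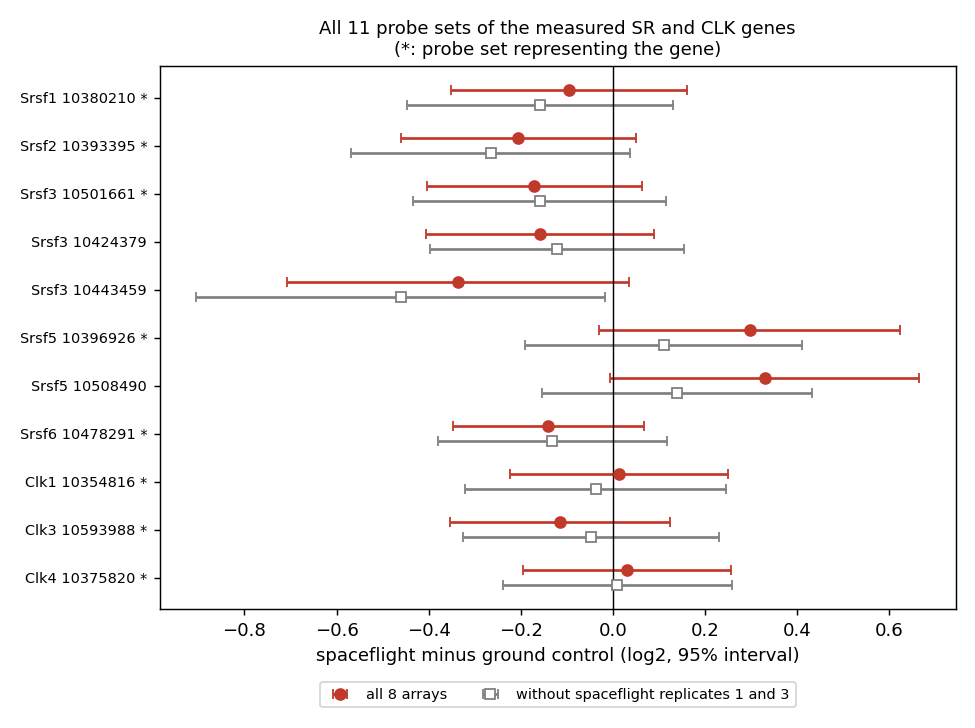
Difference between spaceflight and ground control (log2, x axis) with 95% limma intervals for all 11 probe sets of the 8 genes (y axis, asterisk for the probe set that represents the gene), with filled circles for all 8 arrays and open squares without spaceflight replicates 1 and 3. Every interval with all arrays includes 0, and the Srsf5 difference is 0.30 with all arrays and 0.11 without the 2.

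At their representing probe sets all 8 genes belonged to the brightest of 10 level classes of genes. The difference between groups depended on level across the whole array. In that class, 1994 genes with means from 8.64 to 13.59, the median difference was -0.12 and the middle 50% of genes ran from -0.23 to -0.0029. Srsf1, Srsf2, Srsf3, Srsf6 and Clk3, at -0.20 to -0.095, lay inside that range. Clk1, Clk4 and Srsf5 lay above it. The Srsf3 probe set numbered among chromosome 17 genes, 10443459, averaged 7.78 and so fell in level class 8. Its difference of -0.34 lay below the middle 50% of that class, -0.25 to -0.026. Without spaceflight replicates 1 and 3 the median of the brightest class was -0.0046, and 6 of the 8 SR and CLK genes then had differences below 0.

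**Figure D3:**
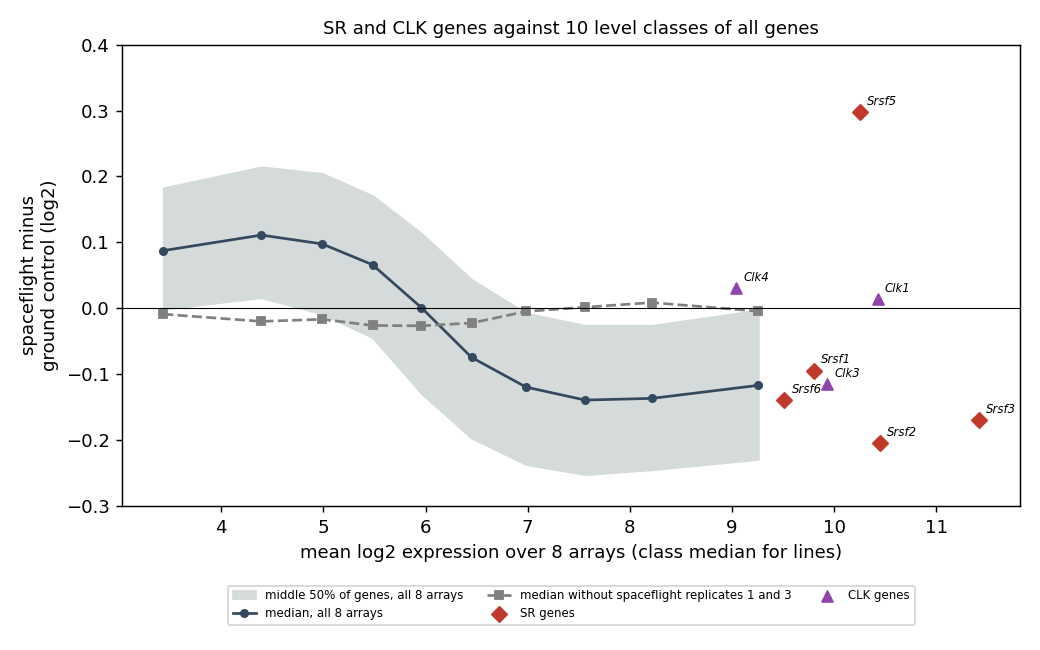
Difference between spaceflight and ground control (log2, y axis) against mean log2 expression (x axis) for the SR genes (diamonds) and CLK genes (triangles), over the median (line) and middle 50% (band) of 10 level classes of all genes, with the median without spaceflight replicates 1 and 3 as a dashed line. Medians run from 0.11 in a dim class to -0.14 in a bright one with all arrays.

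The genes whose log2 values ran most like those of Srsf5 over the 8 arrays, among 9968 genes above the median level, were Fads6 (Pearson r = 0.981), Gm11564 (r = 0.972) and Luc7l2 (r = 0.969). For Clk3 they were Rhbdd2 (r = 0.976), Adam19 (r = 0.974) and Faah (r = 0.974). These coefficients are descriptions of 8 arrays in which array-wide differences are shared by many genes. Differences of these 6 genes ran from -0.19 to 0.30 and none passed the limma test (adjusted p from 0.498 to 0.794).

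The promoters of the SR genes are shown beside that of Cirbp, a cold-inducible gene, because an octamer in the Cirbp promoter, TCCCCGCC, has been described as a mild-cold response element. RefSeq sequences (GRCm38.p6) from 250 bases before to 50 bases after the start were held for 9 of the 10 genes, Clk1 being the exception. Srsf5, with a higher spaceflight mean, Srsf2, with a lower one, and Cirbp are printed 5′ to 3′ on the gene's strand, with capitals for the octamer, for GC boxes (GGGCGG) and for TATA boxes (TATAAA) on either strand. Overlapping GC boxes form a single run of capitals.
Srsf5: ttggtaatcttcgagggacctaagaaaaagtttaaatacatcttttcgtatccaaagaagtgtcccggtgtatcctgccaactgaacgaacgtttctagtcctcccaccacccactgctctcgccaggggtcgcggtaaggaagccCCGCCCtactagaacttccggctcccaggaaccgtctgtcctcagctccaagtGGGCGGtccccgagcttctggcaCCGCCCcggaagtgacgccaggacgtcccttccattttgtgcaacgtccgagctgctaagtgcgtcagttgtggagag
Srsf2: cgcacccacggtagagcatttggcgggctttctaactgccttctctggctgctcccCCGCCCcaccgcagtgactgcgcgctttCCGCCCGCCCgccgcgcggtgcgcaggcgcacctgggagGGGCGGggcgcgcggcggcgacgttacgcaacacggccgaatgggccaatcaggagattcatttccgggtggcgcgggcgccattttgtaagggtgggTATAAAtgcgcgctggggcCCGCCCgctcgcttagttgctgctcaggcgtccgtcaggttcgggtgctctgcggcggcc
Cirbp: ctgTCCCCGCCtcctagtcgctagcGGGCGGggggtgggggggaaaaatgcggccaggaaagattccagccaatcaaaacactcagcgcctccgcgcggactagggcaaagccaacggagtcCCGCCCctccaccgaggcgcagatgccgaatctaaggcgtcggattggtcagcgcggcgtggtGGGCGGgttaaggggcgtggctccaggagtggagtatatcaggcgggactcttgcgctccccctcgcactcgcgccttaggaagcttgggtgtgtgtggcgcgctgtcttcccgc
These windows are chr12:80945249-80945548 on the plus strand for Srsf5, chr11:116853045-116853344 on the minus strand for Srsf2 and chr10:80167589-80167888 on the plus strand for Cirbp, which has a second listed start without the octamer.

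The octamer, read on both strands, was in 1 of the 9 SR and CLK promoters, that of the unmeasured Srsf7, and in 5.38% of 32851 mouse promoters of the same length. GC boxes were in 8 of the 9 and in 35.7% of all promoters, with 3 in Srsf5 and 5 in Srsf2. A TATA box was in 2 of the 9, Srsf2 and Srsf3, and in 13.6% of all. The heat shock element of 3 units, GAANNTTCNNGAA on either strand, was in 0 of the 9 and in 0.603% of all promoters, the chaperone gene Hsph1 among them. These are matches of letters in a short window and say nothing of binding.

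Some genes that respond to temperature had larger differences on the same arrays. Rbm3, a cold-inducible RNA-binding protein, rose 2.65-fold, with 11.93, 12.11, 11.94 and 12.08 in spaceflight, against 10.44, 10.50, 10.67 and 10.81 in ground control (limma adjusted p = 0.00138). Cirbp, its close relative, measured 8.57, 8.25, 7.73 and 8.69 in spaceflight, against 7.14, 6.83, 6.98 and 7.22 in ground control. It did not pass with all arrays (difference 1.27 ± 0.20, limma adjusted p = 0.081) and passed without spaceflight replicates 1 and 3 (1.43, limma adjusted p = 0.0343). All 10 measured heat shock chaperones had lower spaceflight means, with a list median of -0.62. Of these, 4 passed the limma test, against 0.0502% of all genes, in a list chosen with earlier results of these data known. Their differences ran from -1.89 to -0.33, the last near the size of the Srsf5 difference (0.30). Hsph1 differed by -1.89, Hsp90aa1 by -0.88, Stip1 by -0.88 and Fkbp4 by -0.93 on the log2 scale (limma adjusted p = 0.002, 0.0216, 0.0422 and 0.0425). Without spaceflight replicates 1 and 3 Hsph1 passed (-1.74, limma adjusted p = 0.00957), while Hsp90aa1 (-0.84), Stip1 (-0.81) and Fkbp4 (-0.78) did not (limma adjusted p = 0.118, 0.176 and 0.167). At the representing probe sets every 95% interval of an SR or CLK gene lay between -0.46 and 0.62, and over all 11 probe sets between -0.71 and 0.67, while that of Rbm3 ran from 1.16 to 1.66 and that of Hsph1 from -2.25 to -1.54.

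The wider splicing machinery was described with 6 further lists holding 137 genes, of which 126 were measured. None of the 126 passed the limma test. At an unadjusted p under 0.05, 0 were higher (3.05% of all genes) and 10, or 7.94%, were lower (7.00% of all genes), a share near that of all genes. The arrays of the groups separated for 3 as higher (2.38%, against 1.73% of all genes) and for 12 as lower (9.52%, against 4.28%). These shares of all genes are over all levels, while the difference between groups depended on level. Shares within level classes were not computed. The median difference was -0.082, and -0.024 without spaceflight replicates 1 and 3. Without those 2 arrays, 4 of the 126 were higher and 7 lower at an unadjusted limma p under 0.05. Over all 19938 genes these numbers were 651 and 734.

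Among 20 other SR and SR-related proteins the median was -0.015. Srsf10, an SR protein that becomes a general splicing repressor when it loses phosphate in heat shock, measured 9.52, 9.75, 9.73 and 9.51 in spaceflight, against 10.14, 9.94, 9.90 and 10.04 in ground control. All 4 spaceflight arrays were lower than all ground-control arrays. The difference was -0.38 ± 0.11 (95% interval -0.62 to -0.14, unadjusted p = 0.00552, limma adjusted p = 0.39), and it was -0.37 without spaceflight replicates 1 and 3.

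Luc7l, a relative of a yeast U1 snRNP component, measured 7.76, 7.89, 7.96 and 7.77 in spaceflight, against 8.19, 8.28, 8.07 and 8.26 in ground control, without overlap. Its difference was -0.35 ± 0.10 (unadjusted p = 0.00511, limma adjusted p = 0.39). Its paralog Luc7l2 lay on the other side, at 9.93 to 10.28 in spaceflight and 9.73 to 9.89 in ground control, also without overlap (0.23 ± 0.11, limma adjusted p = 0.498). Without spaceflight replicates 1 and 3 the Luc7l2 difference was 0.13 (limma adjusted p = 0.92) and that of Luc7l was -0.37. Srsf12 was dim, at 4.70 to 5.05 in spaceflight and 4.53 to 4.68 in ground control (0.20 ± 0.11, limma adjusted p = 0.512).

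Of 20 other kinases, phosphatases and importers that act on SR proteins or are related to such kinases, 14 had lower spaceflight means (median -0.15, and -0.041 without spaceflight replicates 1 and 3). Lower means were found for 10675 of all 19938 genes. That number is over all levels, while the levels of this list span classes 2 to 10 of 10, with class medians from 0.11 to -0.14. Hipk3, a nuclear kinase related to the DYRK and CLK kinases, measured 8.90 to 9.33 in spaceflight and 9.36 to 9.59 in ground control, without overlap (-0.43 ± 0.12, unadjusted p = 0.00533, limma adjusted p = 0.39). Its relative Hipk2 differed by -0.38 ± 0.15 (limma adjusted p = 0.466). The SR protein kinases, which act largely in the cytoplasm, did not share a direction. Srpk1, outside the rule for named genes and named after its value was seen, averaged 9.04 ± 0.12 in spaceflight and 9.25 ± 0.041 in ground control (SD, n = 4 each), without overlap (-0.21 ± 0.099, limma adjusted p = 0.495). Srpk2 differed by 0.17 ± 0.11 with overlapping groups (limma adjusted p = 0.563). Srpk3, a muscle-enriched member, was dim and had no overlap, at 5.53 to 6.02 in spaceflight and 5.34 to 5.48 in ground control (0.27 ± 0.12, limma adjusted p = 0.492).

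The hnRNP proteins, which often oppose SR proteins at exons, had a median of -0.031 over 22 measured genes. Hnrnpc, which binds uridine tracts in introns, measured 9.57, 9.82, 9.44 and 9.71 in spaceflight, against 10.11, 10.16, 9.88 and 10.02 in ground control, without overlap (-0.41 ± 0.12, unadjusted p = 0.00566, limma adjusted p = 0.39). Pcbp1, a poly(C)-binding protein, differed by -0.33 ± 0.11 (limma adjusted p = 0.445). Hnrnpd, which binds AU-rich elements, and Hnrnpul2 had higher spaceflight means, with differences of 0.31 ± 0.15 and 0.23 ± 0.11 (limma adjusted p = 0.501 and 0.494), and their groups overlapped.

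Core spliceosome genes had lower spaceflight means in 23 of 29 measured genes, with a median of -0.14 that was -0.039 without spaceflight replicates 1 and 3. Over all genes 10675 of 19938 had lower means. In level classes 7 to 10 of 10, which span the levels of this list, medians were -0.14 to -0.12 and upper quartiles were negative. With all arrays no gene of this list reached an unadjusted p under 0.05. The U2 snRNP protein gene Snrpa1 (-0.28 ± 0.13) and the tri-snRNP gene Prpf4 (-0.24 ± 0.11) had the smallest p among lower genes, at limma adjusted p = 0.497 and 0.498. Prpf6 (0.12 ± 0.12) and Cdc5l (0.10 ± 0.11) had the smallest among higher genes, at 0.693 and 0.697. Without spaceflight replicates 1 and 3, 1 gene was higher and 1 lower at an unadjusted limma p under 0.05 (6.95% of all genes). The higher one was Prpf6 (0.31, limma adjusted p = 0.638). The lower one was Sf1, named after its value was seen (-0.25, limma adjusted p = 0.751).

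Genes of nonsense-mediated decay, the pathway that degrades the unproductive SR transcripts, had a median of -0.10 over 10 measured genes and 0.037 without spaceflight replicates 1 and 3. Smg5 differed by -0.34 ± 0.15 (limma adjusted p = 0.485) and the helicase Upf1 by -0.18 ± 0.10 (limma adjusted p = 0.522), while Upf2 differed by 0.15 ± 0.12 and Smg6 by 0.069 ± 0.12 (limma adjusted p = 0.625 and 0.827).

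Other regulators of alternative splicing had a median of -0.12 over 25 measured genes. Elavl1, which encodes the RNA-stabilising protein HuR, measured 9.41, 9.69, 9.24 and 9.56 in spaceflight, against 10.05, 9.85, 9.99 and 9.86 in ground control. The groups did not overlap, and the difference of -0.46 ± 0.12 was the most negative of the 126 genes (unadjusted p = 0.00303, limma adjusted p = 0.348). Without spaceflight replicates 1 and 3 it was -0.31. Zranb2, which binds 5′ splice sites, differed by -0.28 ± 0.11 (limma adjusted p = 0.462), and Celf1, named after its value was seen as the remaining gene of this list at an unadjusted p under 0.05, by -0.31 ± 0.13 (limma adjusted p = 0.481). Khdrbs1, the signalling-responsive splicing factor Sam68, and Esrp2, an epithelial splicing regulator, had differences of 0.13 ± 0.10 and 0.14 ± 0.14 (limma adjusted p = 0.601 and 0.67).

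**Figure D4:**
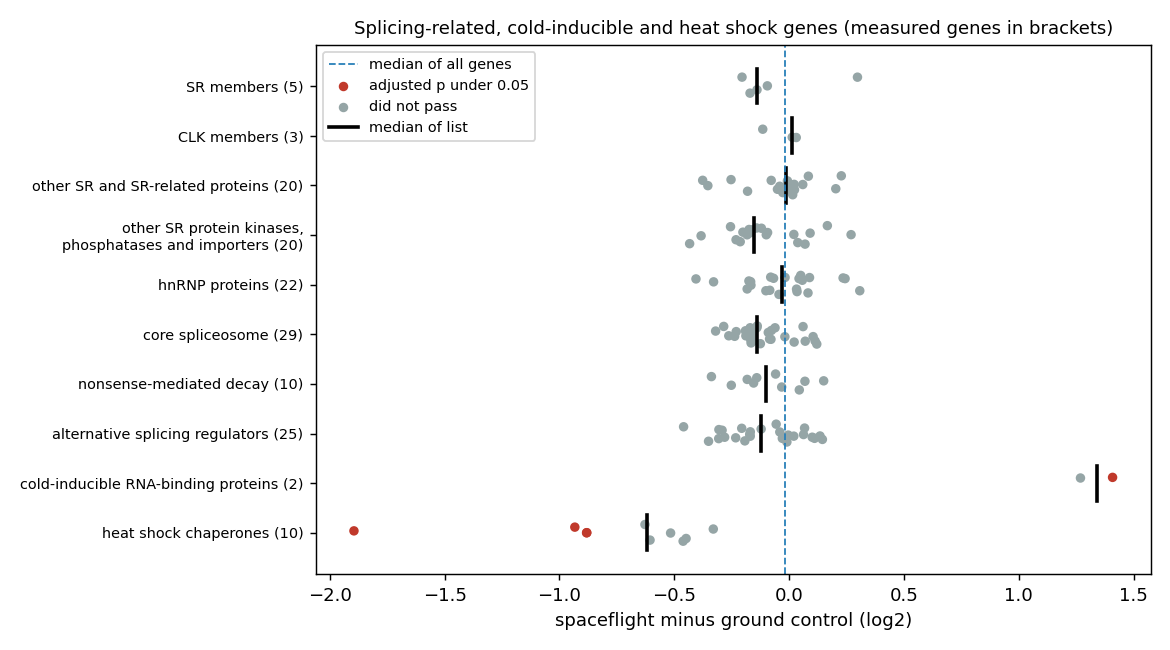
Difference between spaceflight and ground control (log2, x axis) of each measured gene in the SR and CLK lists, 6 further splicing lists and the cold-inducible and heat shock lists (y axis), with red for genes at an adjusted p under 0.05, black bars for list medians and a dashed line for the median of all genes (-0.018). The SR, CLK and other splicing genes all lie between -0.46 and 0.31, and the red genes are Rbm3 and 4 chaperones.

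No marker gene of any cell type examined passed the limma test, but the mean levels of the cortical epithelial and fat cell lists did not overlap between the groups. For fat cells the margin was narrow, with 7.60 to 8.55 in spaceflight and 8.57 to 9.07 in ground control. The fat cell list median was -0.60, and -0.15 without spaceflight replicates 1 and 3. In a whole lobe, fewer cells of a type and less RNA per cell cannot be told apart. The mean of 10 cortical epithelial markers was 8.63 to 9.01 in spaceflight and 9.19 to 9.29 in ground control, without overlap, and 6 of the 10 were lower at an unadjusted p under 0.05 (7.00% of all genes). Without spaceflight replicates 1 and 3 this number was 4, and the list median was -0.18, against -0.44 with all arrays. All 9 double-positive thymocyte markers had lower spaceflight means, with a median of -0.15 that was -0.063 without spaceflight replicates 1 and 3. So did most genes in level classes 6 to 10 of 10, which span the levels of these markers, with class medians of -0.14 to -0.075. The mean of 11 cycling-cell markers was 8.83 to 9.40 in spaceflight and 9.06 to 9.33 in ground control, with overlap. The part of these cells in the SR and CLK values was not tested.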

How the data were processed

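Thymus RNA of 8 mice was analysed, 4 per group. The submitters' processing notes name RMA and limma without their roles, and the deposited values have the range of log2 expression. Versions, build and filters are not given in the sources used here. From 35557 probe sets the lowest unbroken run of identifiers, 6614 with no annotated gene, was left out as probable controls, a choice made with the data in view. The other 28943 were tested together. In the platform annotation 21789 had 1 gene and 1621 several, and symbols were updated by Entrez identifier through RefSeq (GRCm38.p6, 21698 matched). Each gene took its single-gene probe set of highest mean.

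Groups were compared with limma 3.58.1 in R 4.3.3 (lmFit, eBayes, two-sided, no covariate), with Benjamini-Hochberg adjustment over all 28943 probe sets. Intervals are limma's at 95%. Precision is limited by how few arrays there were. The SR and CLK genes and all gene lists were chosen with earlier results of these data known. In the other splicing lists the named genes are the 2 higher and the 2 lower of smallest p and any that passed. Lists are described by counts and medians without a set test. No 2 arrays were identical. The procedure was tested on simulated data with independent normal noise for each gene. The simulated arrays had no array-wide differences, so that test does not cover those seen here. Alternatives covered centring, repeated quantile normalization, a filter on dim probe sets, the variance model, array weights, a replicate block, left-out arrays and the choice of probe set.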

Additional observations from a re-analysis of the deposited data

Results flagged for a closer look

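In 3 of 82 groups of 4 arrays, over the SR and CLK probe sets and the other named genes, 1 array lay far from the other 3 by Dixon's criterion. Chance flags about 5% of groups. Srsf12 was 5.05 in spaceflight replicate 4, with 4.70 to 4.74 in the other spaceflight arrays. Hipk3 was 9.33 in spaceflight replicate 2, with 8.90 to 8.96 in the other spaceflight arrays. Prpf6 was 8.44 in ground-control replicate 4, with 8.53 to 8.55 in the other ground-control arrays. None of the 11 SR and CLK probe sets was among them.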

How the results depend on the processing

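No SR or CLK gene and none of the 126 other splicing genes was called under any of the 19 alternatives. The difference kept its sign in all 19 for Srsf1, Srsf2, Srsf3, Srsf5, Srsf6 and Clk3. Clk1 changed sign with array weights (-0.00997) and without spaceflight replicates 1 and 3 (-0.0376), and ran from -0.0292 to 0.060 when single arrays were left out, below 0 without spaceflight replicate 1 or ground-control replicate 3 or 4. Clk4 ran likewise from -0.0184 to 0.066, below 0 without spaceflight replicate 3 or ground-control replicate 3. The cause was not tested. SR and CLK genes at an unadjusted p under 0.05 numbered 0 to 1 without single arrays, the 1 being Srsf5 without spaceflight replicate 2 (limma unadjusted p = 0.0285, adjusted p = 0.257; 16.3% of all genes) or ground-control replicate 2 (limma unadjusted p = 0.0471; 9.59% of all genes). Those whose groups did not overlap numbered 0 to 2 without single arrays (Srsf2 without spaceflight replicate 1, Srsf6 without spaceflight replicate 2, both without ground-control replicate 1, and Srsf3 without ground-control replicate 3, where 7.39% to 14.4% of all genes did not overlap) and 1 without spaceflight replicates 1 and 3 (Srsf2), where 15.9% of all genes did not overlap. The probe set of Srsf3 numbered among its own chromosome's genes, a choice made after seeing the data, gave -0.34 and no call.

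Over all genes the 10 calls (2 higher, 8 lower) became 3 (1 higher, 2 lower) with centring on the 75th percentile (median of all genes 0.061, against -0.018, so that the medians of other SR proteins and of hnRNP genes, nearer 0 than this shift, turn positive), 6 without spaceflight replicates 1 and 3, 16 with the mean of all probe sets of a gene, and 2 to 9 without single arrays. With fewer arrays fewer samples enter the fit; otherwise the cause was not tested. The replicate block gave 0 calls by limma (1700 genes at an unadjusted p under 0.05, against 2005 without it) and changed no SR or CLK call. Same-numbered arrays correlated at -0.40 to 0.25 in their deviations from group means, and no spaceflight array correlated best with its own number. Whether replicate numbers pair the mice cannot be told from these values, since spaceflight replicates 1 and 3 differed array-wide from the rest.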
